A study of Sus scrofa with 18 samples.

Results

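The cytosolic ribosomal proteins are the protein parts of the ribosome that works in the cytoplasm, and 64 of their genes were measured here in pig kidneys before and after transplantation. Members were probe sets to which the array's annotation gives a single symbol that begins with RPL or RPS and a number, or RPSA, RPLP0, RPLP1 or RPLP2, with the RPS6 kinases left out. That rule found 96 probe sets among the 23999 analysed, for 64 genes, and each gene was represented by its brightest probe set over the 18 arrays. By role, the 64 were 31 large subunit proteins, 24 small subunit proteins, the 3 stalk proteins, 5 paralogs (RPL22L1, RPL26L1, RPL36AL, RPL7L1 and RPS27L) and RPS19BP1, a binding partner of RPS19 that matches the symbol pattern but is not part of the ribosome.

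A ribosome joins a small subunit, which reads the messenger RNA, to a large subunit, which forms the peptide bonds, and each subunit is built in the nucleolus from ribosomal RNA and these proteins. Their messenger RNAs are among the most abundant of most cells, begin with a tract of pyrimidines and are controlled largely at translation, through mTOR signalling, so a level of messenger RNA is not a rate of protein synthesis. Several members act outside the ribosome: RPL5 and RPL11, for instance, bind MDM2 when ribosome assembly fails. In the injured kidney, surviving tubule cells are known to re-enter the cell cycle, and growing cells need more ribosomes.

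The study addressed ischemia-reperfusion injury in organ transplantation and the effect of carbon monoxide (CO). RNA of 18 kidneys was hybridised to 18 Affymetrix pig arrays. Naive kidneys, untreated and not transplanted, had n = 2. The transplanted kidneys were untreated or CO-treated and were taken at 4 h or 24 h, with n = 4 in each of those 4 groups. Donors 1 to 4 each gave 1 untreated and 1 CO kidney of 4 h, and donors 5 to 8 gave those of 24 h. The labels do not say whether donor, graft or recipient received CO. Levels are log2 values, so a difference of 1 is a doubling, and a difference passed where limma's two-sided test had a Benjamini-Hochberg adjusted p under 0.05 over all 23999 probe sets. Errors after ± are limma's standard errors unless SD is stated.

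Over all arrays, values ran from 0.226 to 13.46, and the array medians over all probe sets lay between 3.75 and 3.94. The tissue label was borne out by proximal tubule markers, of which 10 of 15 were measured and 10 were above background in every group; their mean level on an array was 9.98 to 10.0 in naive kidneys, 8.83 to 9.78 and 8.02 to 9.39 at 4 h (untreated and CO), and 5.70 to 7.21 and 6.77 to 8.16 at 24 h. Markers of granulocytes and macrophages (11 of 16 measured) had mean levels of 2.58 to 3.24 in naive, 3.63 to 5.45 and 3.54 to 3.93 at 4 h, and 4.10 to 5.62 and 3.48 to 5.51 at 24 h. S100A8, S100A9 and S100A12 were at or below background in naive kidneys. S100A12 was also below it in both 24 h groups (1.472 untreated, 1.598 CO), as was S100A8 in CO kidneys at 24 h (1.569). Group means of ITGAM stayed between 1.656 and 1.748. Markers of lymphocytes (10 of 15 measured) averaged 2.63 to 3.33 in naive and 3.00 to 5.41 and 2.80 to 5.06 at 24 h, and cell cycle genes (10 of 12) averaged 3.35 to 3.43 in naive, 3.96 to 5.67 in untreated and 4.09 to 6.30 in CO kidneys at 24 h. RNA of whole kidney is a mixture, so fewer cells of a type and less RNA per cell cannot be told apart.

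Nearly all ribosomal protein genes gave strong signals. The mean level over 18 arrays was above 9 for 55 of the 64 genes and above 11 for 24, and the median gene stood at the 99.6th percentile of all probe sets. The brightest probe sets were those of RPS18, of the head of the small subunit (mean 12.04), RPS20, also of the head (11.93), and RPS29, a small zinc-binding protein (11.85). The dimmest were RPL30 (2.60), RPL26 (2.37) and RPS15A (1.59), near the background of 1.61, which was taken as the 95th percentile of 17 tag control probe sets; RPL30 exceeded it on 17 arrays and RPS15A on 7. Brightness depends on the probes as well as on the RNA, so these values do not rank the genes by abundance, and changes of those 3 genes rest on signals close to background.

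**Figure D1:**
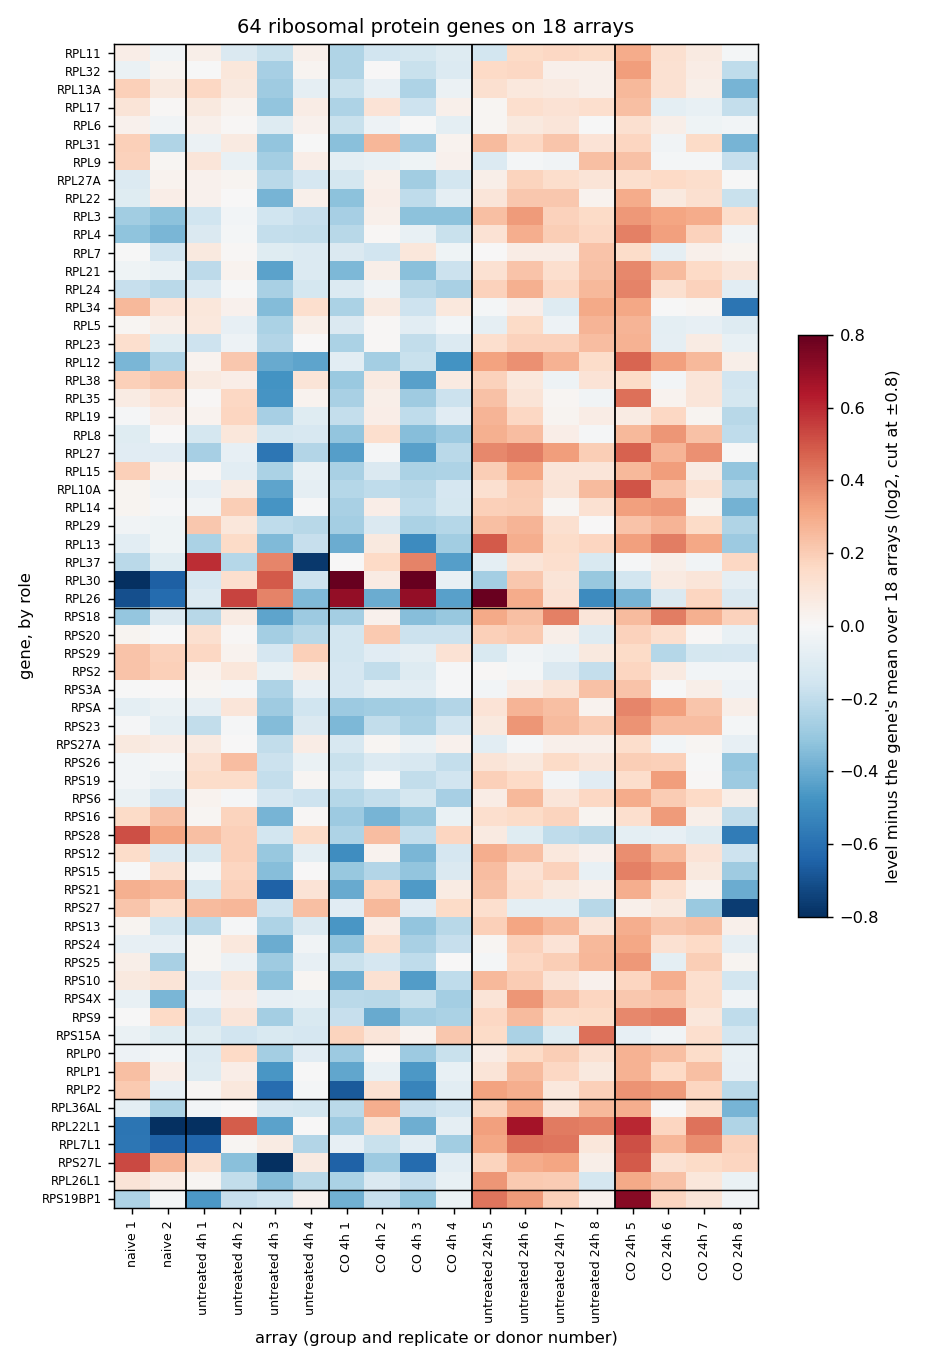
Level of each of 64 ribosomal protein genes (rows, grouped by role) on each of 18 arrays (columns, by group and replicate or donor number), as the log2 difference from the gene's mean over all arrays, with the colour scale limited to 0.8 in either direction. The 24 h columns are mostly red and the 4 h columns mostly blue, RPS2 and RPS28 read highest in the naive columns, and the CO 24 h array of donor 8 is bluer than the other 24 h arrays.

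As a group, the members differed little between arrays and moved together. The array's median over the 64 genes was 10.84 and 10.78 in the naive kidneys. It was 10.51 to 10.86 in untreated and 10.56 to 10.79 in CO kidneys at 4 h, then 10.93 to 10.99 in untreated and 10.69 to 11.13 in CO kidneys at 24 h. The untreated 24 h arrays all lay above every naive and 4 h array, while the CO 24 h range overlapped them through donor 8 alone (10.69). After group means were removed, a member's residuals had a median Pearson r of 0.78 with the mean of the other members over 18 arrays, and 54 of 64 had an r above 0.5. The same figure was 0.619 for the mitochondrial ribosomal proteins and 0.714 for ribosome biogenesis genes. All these probe sets share the arrays and their normalisation, so the correlations are descriptive. The lowest values were those of RPL30 (-0.39), RPL37 (-0.28), RPL26 (-0.27) and RPS15A (-0.07), 3 of them the dim genes.

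The first comparison set the transplanted kidneys at 4 h against naive ones. In untreated kidneys 0 of 64 members passed, where 1.5% of all probe sets did (361 of 23999), and 3 members had an unadjusted p under 0.05 (20.7% of all). In CO kidneys 2 of 64 passed (3.12%), RPL30 upward and RPS27L downward, where 6.84% of all probe sets rose and 6.72% fell. The median member differed from naive by -0.07 in untreated and -0.14 in CO kidneys, against -0.03 and -0.01 for all probe sets and -0.03 and -0.09 for the 1000 brightest others. Of the 64 members, 47 were below naive in the untreated and 52 in the CO kidneys. Both comparisons use the same 2 naive arrays.

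RPS27L, the RPS27 paralog known as a p53 target, read 8.86 and 8.60 in the naive kidneys. It read 8.46, 8.00, 7.54 and 8.41 in untreated kidneys at 4 h (donors 1 to 4) and 7.68, 8.04, 7.71 and 8.25 in CO kidneys. All 8 arrays of 4 h lay below both naive arrays, with the untreated kidney of donor 3 the lowest. RPS27L fell by 0.81 ± 0.230 in CO kidneys (adjusted p = 0.0302), and in untreated kidneys the difference of -0.63 ± 0.230 did not pass (adjusted p = 0.133). RPL30, a large subunit protein, read 1.27 and 1.95 in naive, 2.47, 2.74, 3.09 and 2.44 in untreated and 3.49, 2.67, 3.68 and 2.54 in CO kidneys of donors 1 to 4. It rose by 1.49 ± 0.299 with CO at 4 h (adjusted p = 0.0079), and the untreated difference of 1.08 did not pass (adjusted p = 0.0672). Of its naive arrays 1 lay above the background of 1.61 and 1 below, with the mean at it (1.61), so the size of its rises is uncertain and no fold is given. The member of next smallest p with CO was RPS2, which lies at the entry for messenger RNA (-0.32, adjusted p = 0.078), and in untreated kidneys RPL7L1 (0.42, adjusted p = 0.196).

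These calls were repeated with each array left out in turn. Without naive 1 or naive 2 that group has 1 array, so a call can be lost through precision alone. In the CO 4 h comparison the change of RPL30 was then 1.148 and 1.83, and that of RPS27L -0.679 and -0.937. RPS27L missed the threshold without the CO arrays of donor 1 (adjusted p = 0.0825) or donor 3 (adjusted p = 0.0709). Without the untreated 4 h array of donor 1, 3 members passed in untreated kidneys, namely RPL30 (adjusted p = 0.0248), RPL7L1 (0.0235) and RPS27L (0.0396).

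At 24 h most members were above naive by small amounts. In untreated kidneys 8 of 64 members rose (12.5%) and 0 fell, where 6.79% of all probe sets rose and 7.77% fell. In CO kidneys 7 rose and 1 fell, where 5.75% of all probe sets rose and 5.93% fell. Among the 1000 brightest other probe sets, 19.9% rose in untreated and 18.1% in CO kidneys, against 8 and 7 of 64 members. These 1000 had mean levels of 7.99 to 13.4. Their median on an array was 8.705 to 8.924, below that of the members, so they are not matched to the members in level. The median member was 0.15 above naive in untreated and 0.09 in CO kidneys, where the median of the 1000 brightest others was 0.08 and 0.09, and that of all probe sets 0.01 and -0.02. Values were above 0 for 51 of 64 members in untreated and 48 in CO kidneys.

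The large subunit proteins RPL3, RPL4 and RPL12 were among the genes that rose. RPL3, which lies by the peptidyl transferase centre, read 10.63 and 10.58 in naive kidneys. It read 11.14, 11.24, 11.09 and 11.05 in untreated and 11.25, 11.21, 11.20 and 11.04 in CO kidneys at 24 h (donors 5 to 8). These 8 arrays lay above all 10 others, of which the highest was 10.94. RPL3 rose by 0.53 ± 0.131 in untreated (1.44-fold, adjusted p = 0.0128) and by 0.57 ± 0.131 in CO kidneys (adjusted p = 0.0105). RPL4, which lines the exit tunnel of the nascent chain, read 10.55 and 10.50 in naive, 10.99, 11.16, 11.07 and 11.04 in untreated and 11.27, 11.20, 11.06 and 10.84 in CO kidneys at 24 h, with both naive arrays below all the others. Its rises were 0.54 ± 0.134 (adjusted p = 0.0135) and 0.57 ± 0.134 (adjusted p = 0.0125). RPL12, at the base of the stalk, read 10.30 and 10.42 in naive, 10.99, 11.04, 10.95 and 10.81 in untreated and 11.14, 11.00, 10.93 and 10.72 in CO kidneys, and rose by 0.58 ± 0.183 in both (adjusted p = 0.0416 and 0.0484). RPS4X and RPL24 rose in untreated kidneys by 0.43 (adjusted p = 0.0329) and 0.42 (adjusted p = 0.0475), and RPS18 in CO kidneys by 0.49 (adjusted p = 0.0487).

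Larger changes were found for 2 paralogs. RPL7L1, a nucleolar relative of RPL7 that takes part in large subunit assembly, read 7.77 and 7.71 in naive kidneys. It read 7.72, 8.37, 8.42 and 8.11 in untreated and 8.28, 8.17, 8.26 and 8.07 in CO kidneys at 4 h, and 8.66, 8.79, 8.78 and 8.44 in untreated and 8.87, 8.62, 8.72 and 8.54 in CO kidneys at 24 h. Every 24 h array thus exceeded every 4 h array, narrowly, and every naive array by a wide margin. RPL7L1 rose by 0.93 ± 0.178 in untreated (1.90-fold, adjusted p = 0.00298) and 0.95 ± 0.178 in CO kidneys (adjusted p = 0.00375). RPL22L1, the paralog of RPL22, read 8.19 and 7.96 in naive, 7.98, 9.27, 8.35 and 8.79 in untreated and 8.49, 8.90, 8.39 and 8.71 in CO kidneys at 4 h, and 9.11, 9.45, 9.20 and 9.18 in untreated and 9.39, 8.96, 9.21 and 8.54 in CO kidneys at 24 h. All 24 h arrays lay above both naive arrays, while the untreated 4 h kidneys were the most scattered. RPL22L1 rose by 1.15 ± 0.287 in untreated (2.22-fold, adjusted p = 0.0132) and 0.95 ± 0.287 in CO kidneys (1.93-fold, adjusted p = 0.0417). The dim RPL30 rose as well, by 0.93 (adjusted p = 0.0464) and 0.98 (adjusted p = 0.0423), again from a naive mean at background.

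**Figure D2:**
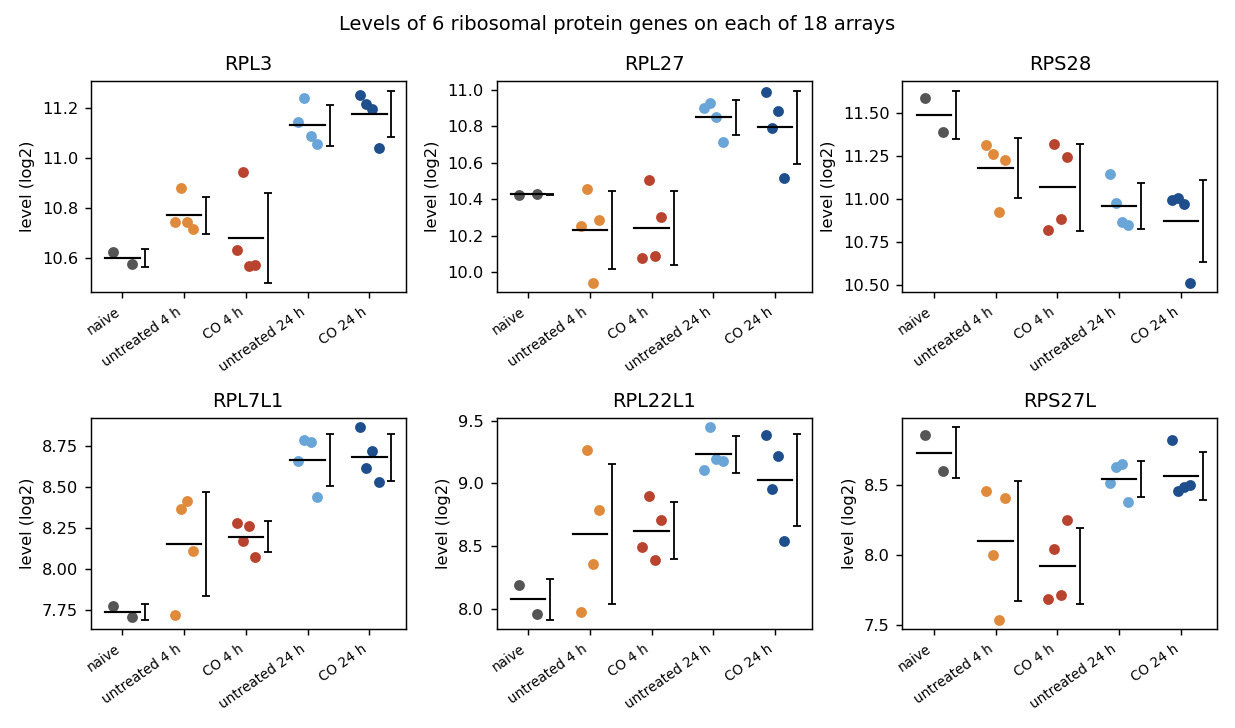
Level (log2) of 6 ribosomal protein genes on each of 18 arrays, by group; points are arrays, horizontal lines group means and bars the SD (n = 2 naive, n = 4 in the other groups). The 8 arrays of 24 h lie above all others for RPL3 and RPL7L1, the naive arrays are the highest for RPS28, and RPS27L has its lowest group means at 4 h.

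RPS28 was the member that fell at 24 h. It is a small protein of the small subunit, near the exit for messenger RNA, and it read 11.59 and 11.39 in naive kidneys. At 4 h it read 11.31, 11.27, 10.92 and 11.23 in untreated and 10.82, 11.32, 10.88 and 11.24 in CO kidneys; at 24 h it read 11.15, 10.98, 10.87 and 10.85 in untreated and 11.00, 11.01, 10.97 and 10.52 in CO kidneys. All 16 transplanted kidneys lay below both naive kidneys. RPS28 fell by 0.62 ± 0.185 in CO kidneys at 24 h (adjusted p = 0.0394), and in untreated kidneys the difference was -0.53 ± 0.185 (adjusted p = 0.0659). This rests on 1 of its 3 probe sets: the other 2, with means of 5.36 and 2.80, were 0.45 and 0.18 above naive in CO kidneys. Below naive at 24 h, without passing, were also RPS27 (-0.24 untreated, -0.42 CO) and RPS29 (-0.24 and -0.30), both small zinc-binding proteins of the small subunit. In all, 12 of 64 members were below naive in both 24 h comparisons, which share the naive arrays.

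These 24 h calls all rest on the same 2 naive arrays, and were not kept with the batch read from the array file names as a block. Without naive 1 or naive 2 that group has 1 array, so a call can be lost through precision alone. Over these omissions and both comparisons the rise was 0.505 to 0.599 for RPL3, 0.517 to 0.59 for RPL4 and 0.83 to 1.269 for RPL22L1. It was 0.524 to 0.642 for RPL12 and 0.589 to 1.323 for RPL30. The change of RPS28 in CO kidneys was -0.517 and -0.716. Over all 18 omissions and both comparisons, the rise of RPL3 lay between 0.49 and 0.62 and that of RPL7L1 between 0.89 and 1.00. Weaker calls missed the threshold without single transplanted arrays. The number of arrays, naive ones included, whose omission alone ended the call was 7 (untreated) and 11 (CO) for RPL12, 10 and 8 for RPL30, 8 for RPL22L1 in CO kidneys and 6 for RPS28. Some of these arrays lay outside the comparison, where an omission alters only the shared spread and the adjustment. For RPL12 in CO kidneys the change then stayed at 0.582, with limma adjusted p of 0.0533 to 0.0604. Member counts fell to 5 without untreated 5, 4 without untreated 6 or untreated 7 and 5 without CO 7 in untreated kidneys. In CO kidneys they fell to 3 to 5 without CO 5, CO 6, CO 7, CO 4 h donor 1 or untreated 5, 6 or 7. With batch as a block, 0 members passed in either comparison and the medians were 0.09 and 0.04. Only 1 array of 24 h, untreated 5, shares a batch with naive or 4 h arrays, so the blocked comparisons rest on that link. A count of 0 there cannot tell the absence of a difference from a lack of precision. Batch 2 holds naive 2 and the untreated 24 h kidney of donor 5: within it, 50 of 64 members were higher in the transplanted kidney, with a median of 0.16 (0.08 for the 1000 brightest others), and RPL7L1 was higher by 0.95, RPL22L1 by 1.14 and RPL3 by 0.57.

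**Figure D3:**
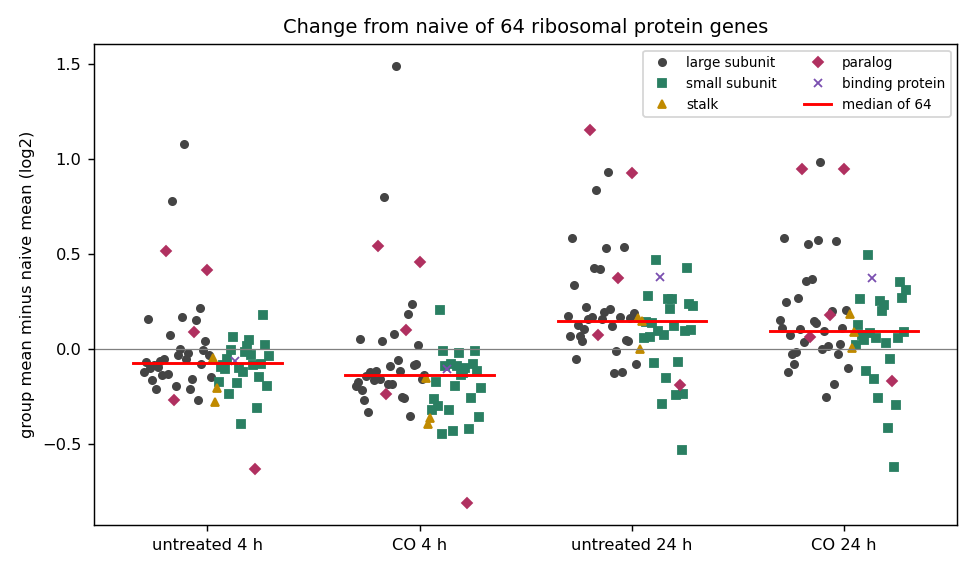
Difference from the naive mean (log2, vertical axis) of each of 64 ribosomal protein genes in the 4 transplanted groups (n = 4 each, against n = 2 naive), with symbols by role and red lines at the median of the 64. The medians are -0.07 and -0.14 in the 4 h groups and 0.15 and 0.09 in the 24 h groups, and the paralogs RPL22L1 and RPL7L1 and the dim RPL30 stand above the others at 24 h.

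Members were higher at 24 h than at 4 h in both arms, by small amounts. In untreated kidneys 5 of 64 rose (7.81%) and 0 fell, where 5.15% of all probe sets rose and 4.57% fell. In CO kidneys 14 rose (21.9%) and 0 fell, where 10.2% of all probe sets rose and 7.44% fell. Among the 1000 brightest other probe sets, 12.6% rose and 14.1% fell in untreated kidneys and 18.2% rose and 16% fell in CO kidneys. The shares of members that rose were of the order of this background, which is not matched in level, while 0 members fell. Values were above 0 for 59 members in untreated and 57 in CO kidneys, with medians of 0.21 and 0.28; the medians of all probe sets were 0.02 and -0.04, and of the 1000 brightest others 0.04 in both. Large and small subunit proteins had similar medians, 0.19 and 0.20 in untreated and 0.22 and 0.27 in CO kidneys, with 2 of 31 and 2 of 24 rising in the former and 5 of 31 and 7 of 24 in the latter.

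The 5 genes that passed in both arms were RPL27, RPL3, RPL7L1, RPS18 and RPS23. RPL27, a large subunit protein, read 10.25, 10.46, 9.94 and 10.28 in untreated and 10.08, 10.51, 10.09 and 10.30 in CO kidneys at 4 h, and 10.90, 10.93, 10.85 and 10.72 in untreated and 10.99, 10.79, 10.88 and 10.52 in CO kidneys at 24 h. The groups did not overlap, though CO donor 8 came close to the highest 4 h array, CO donor 2. RPL27 rose by 0.62 ± 0.138 in untreated (1.53-fold, adjusted p = 0.00988) and 0.55 ± 0.138 in CO kidneys (1.47-fold, adjusted p = 0.0121). RPS18 read 11.82, 12.11, 11.62 and 11.75 in untreated and 11.77, 12.07, 11.70 and 11.74 in CO kidneys at 4 h, and 12.35, 12.28, 12.44 and 12.14 in untreated and 12.30, 12.45, 12.32 and 12.22 in CO kidneys at 24 h. It too had no overlap, and rose by 0.48 ± 0.126 (adjusted p = 0.0246) and 0.50 ± 0.126 (adjusted p = 0.0122). The rises of RPL3 were 0.36 (adjusted p = 0.0424) and 0.50 (adjusted p = 0.00525), those of RPS23, of the decoding centre, 0.39 (adjusted p = 0.0388) and 0.45 (adjusted p = 0.0122), and those of RPL7L1 0.51 (adjusted p = 0.0338) and 0.49 (adjusted p = 0.0297).

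In CO kidneys the list was longer. RPSA, a small subunit protein also known as the laminin receptor, read 11.19, 11.20, 11.21 and 11.24 at 4 h and 11.87, 11.81, 11.70 and 11.52 at 24 h. The CO groups did not overlap, and RPSA rose by 0.52 ± 0.111 (adjusted p = 0.00511). In untreated kidneys it read 11.41, 11.57, 11.19 and 11.32 and then 11.59, 11.75, 11.72 and 11.50, which overlap (0.27, adjusted p = 0.153). RPS27L rose by 0.64 ± 0.188 in CO kidneys (1.56-fold, adjusted p = 0.0265), from the low 4 h values given above to 8.82, 8.45, 8.48 and 8.50, with a mean of 8.56 against 8.73 in naive kidneys. In untreated kidneys it read 8.51, 8.63, 8.65 and 8.38 at 24 h (0.44 above 4 h, adjusted p = 0.161). RPS6, the substrate of the S6 kinases, read 10.90, 10.94, 10.99 and 10.86 in CO kidneys at 4 h and 11.43, 11.34, 11.29 and 11.18 at 24 h, and rose by 0.39 (adjusted p = 0.0128). RPL12 rose by 0.53 ± 0.149 (adjusted p = 0.0216). A gene that passed in the CO arm and not in the untreated arm was not shown to differ between them: the test of that difference, the interaction of CO and time, passed for 0 of 64 members and for 0% of all probe sets (0 members and 612 probe sets, 2.55%, had an unadjusted p under 0.05). Its smallest p-values were those of RPS2 (0.27), RPSA (0.25) and RPS15A (-0.34), each with an adjusted p of 0.996.

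Across the 64 genes the arms gave similar values. The differences between 24 h and 4 h were above 0 in both arms for 56 members, below 0 in both for 4 (RPL30, RPS27, RPS28 and RPS29) and of opposite sign for 4 (RPL26, RPL34, RPS15A and RPS2). Pearson's r across genes was 0.808 and Spearman's rho 0.828, and r was 0.831 for the 55 genes with a mean above 9. The arms share no array, but they share donors and file name batches, and genes are not independent, so no p-value is given. Every 24 h array lay above every 4 h array for 20 members in untreated kidneys (7.11% of all probe sets did) and 14 in CO kidneys (11.2% of all). The opposite order was found for 0 members in either arm (6.14% and 9.68% of all). With both arms joined, 6 members did so (RPL21, RPL27, RPL3, RPL7L1, RPS18 and RPS6), where 3.21% of all probe sets did.

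**Figure D4:**
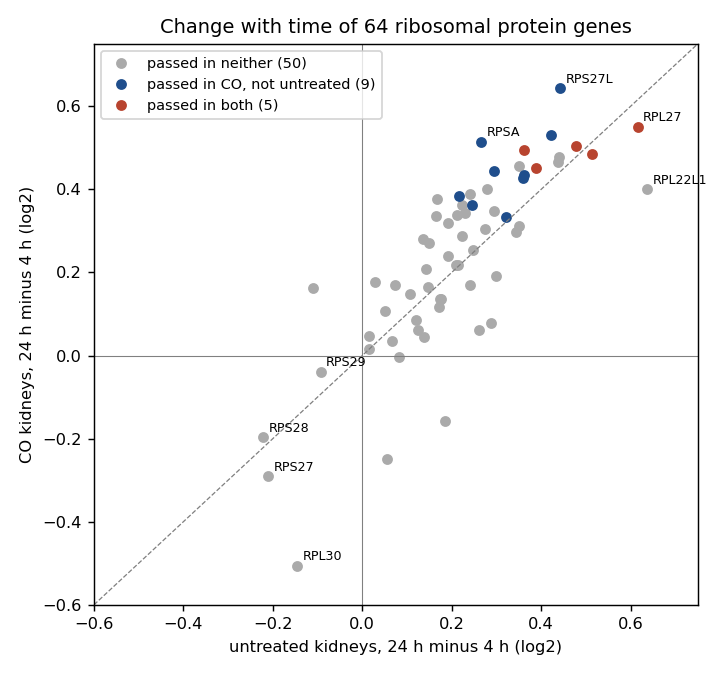
Difference between 24 h and 4 h (log2) in untreated kidneys (horizontal axis) and in CO kidneys (vertical axis) for each of 64 ribosomal protein genes, n = 4 arrays per group, coloured by where the gene passed; the dashed line marks equal differences. Of the 64 points, 56 lie above 0 on both axes, and RPL30, RPS27, RPS28 and RPS29 lie below 0 on both.

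Other measures moved with time as well, and their part in these values was not tested. All 10 proximal tubule markers fell in untreated and 5 of 10 in CO kidneys between 4 h and 24 h (medians -2.54 and -1.35), while 6 of 10 cell cycle genes rose in untreated and 8 of 10 in CO kidneys (medians 1.63 and 2.21), and 0 fell. The mean level of the cell cycle genes was 3.02 to 4.15 and 2.88 to 3.44 at 4 h (untreated and CO), against 3.96 to 5.67 and 4.09 to 6.30 at 24 h, so the untreated ranges overlapped and the CO ranges did not. Of 11 granulocyte and macrophage markers 0 rose in untreated (median 0.30) and 3 in CO kidneys (1.26), and of 10 lymphocyte markers 0 rose in either arm (medians 0.95 and 1.30). Over all probe sets, 5.15% rose and 4.57% fell in untreated kidneys, and 10.2% rose and 7.44% fell in CO kidneys. The difference between 3' and 5' GAPDH probe sets, a sign of RNA integrity, was 0.911 to 1.54 and 1.04 to 1.54 at 4 h (untreated and CO) and 1.29 to 1.91 and 1.14 to 2.28 at 24 h. For actin it was 1.541 to 2.063 and 1.319 to 1.882 at 4 h, and 1.199 to 2.265 and 1.22 to 2.787 at 24 h. A 28S ribosomal RNA probe set read 7.98 to 9.86 and 7.11 to 10.5 at 4 h, and 5.80 to 10.2 and 6.35 to 7.61 at 24 h. Its group medians were 8.355 and 9.492 at 4 h and 6.069 and 6.55 at 24 h. The value of 10.2 was that of untreated donor 8, while untreated donors 5, 6 and 7 read 6.28, 5.86 and 5.80. In naive kidneys the 28S probe set read 7.47 and 7.99. An 18S probe set read 7.45 and 7.74 in naive kidneys, and 7.36 to 8.86 and 7.56 to 8.43 at 4 h. At 24 h it read 7.312 to 8.425 and 7.222 to 8.118. The 18S group medians were 7.874 and 7.844 at 4 h and 7.476 and 7.585 at 24 h. With the file name batch as a block, 0 members passed in either arm and the medians were 0.13 and 0.17. Here too the block rests on 1 linking array, untreated 5, so the count of 0 may reflect a lack of precision. In the only batch with untreated arrays of both times, batch 2, the 24 h kidney of donor 5 was above the 4 h kidney of donor 2 for 45 of 64 members, with a median of 0.07 (0.09 for the 1000 brightest others). No CO 24 h array shares a batch with a 4 h array, so in the CO arm time and batch cannot be told apart.

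Single arrays also moved these counts. Of the 5 calls in untreated kidneys, RPL27 kept its side of the threshold without each of the 18 arrays in turn; the omission of 1 array ended the call of RPL3 for 12 of them (adjusted p up to 0.129), of RPS23 for 9 (up to 0.124), and of RPL7L1 and RPS18 for 5 each (up to 0.102 and 0.0821). The count was 1 without untreated 4, 6 or 7, 2 without untreated 1, 3 or 5, 3 without either naive array, CO 3 or CO 7, and 8 without untreated 2. In CO kidneys RPL27, RPL3, RPS18 and RPSA passed without each array in turn, RPL12 missed without CO 4, 5 or 6 (adjusted p up to 0.0685) and RPS27L without CO 1, 3 or 5 (up to 0.0853). The count was 6 without CO 5, 8 without CO 1 or CO 3, 9 without CO 6 or CO 7, and 26 without CO 8, the array with the low median. Of the 18 arrays, CO 8 also had the largest differences between 3' and 5' probe sets, 2.28 for GAPDH and 2.79 for actin. Whether RNA integrity plays a part in that count was not tested. Shares of all probe sets without single arrays are not given here, so these counts were not shown to be particular to the members.

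No member passed between CO and untreated kidneys. At 4 h and at 24 h, 0 of 64 members passed, as did 0% of all probe sets; 0 members had an unadjusted p under 0.05 at either time, against 787 probe sets (3.28%) at 4 h and 281 (1.17%) at 24 h. The medians of the members were -0.07 at 4 h (0.02 for all probe sets, -0.02 for the 1000 brightest others) and -0.02 at 24 h (-0.01 and 0.03). Of the 64 members, 52 were lower with CO at 4 h and 46 at 24 h. The smallest p-values at 4 h were those of RPL30 (0.41), RPS15A (0.26) and RPS4X (-0.19), each with an adjusted p of 0.999. At 24 h they were those of RPS2 (0.13), RPL36AL (-0.20) and RPL31 (-0.21), each with an adjusted p of 1. The 95% confidence intervals lay within 1 log2 unit of 0 for all 64 members. At the extremes they ran from -0.62 to 0.93 at 4 h and from -0.92 to 0.57 at 24 h. Changes of the array signal as large as a doubling thus lay outside these intervals, while smaller ones lay within them.

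The stalk proteins RPLP0, RPLP1 and RPLP2, which recruit the elongation factors, did not pass in any comparison. RPLP0 had group means of 11.32 ± 0.014 (SD, n = 2) in naive, 11.28 ± 0.179 and 11.17 ± 0.143 at 4 h (untreated and CO, SD, n = 4) and 11.49 ± 0.056 and 11.51 ± 0.149 at 24 h. RPLP1 was 0.39 below naive in CO kidneys at 4 h (adjusted p = 0.136), and RPLP2 was 0.46 higher at 24 h than at 4 h with CO (adjusted p = 0.116). Of the members with known roles outside the ribosome, RPL5 and RPL11 also did not pass: RPL5 had means of 10.77 in naive, 10.69 and 10.68 at 4 h and 10.81 and 10.74 at 24 h, and RPL11 of 11.51, 11.44 and 11.34, and 11.58 and 11.62. RPL13A, which can leave the ribosome to silence inflammatory messages, had means of 11.38 in naive, 11.22 and 11.11 at 4 h and 11.33 and 11.26 at 24 h. RPS19, the gene most often mutated in Diamond-Blackfan anemia, had means between 11.01 and 11.20 in all groups, and no comparison of RPL13A or RPS19 passed. RPS19BP1, the binding partner, read 6.27 to 6.77 in untreated and 6.36 to 6.69 in CO kidneys at 4 h, and 6.77 to 7.16 and 6.71 to 7.46 at 24 h (0.44, adjusted p = 0.0999, and 0.48, adjusted p = 0.0503).

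For 2 pairs, RPS27L with RPS27 and RPL22L1 with RPL22, the paralog and its parent gene were compared within each array, as the difference of their log2 levels; RPL7L1 and RPL26L1 were not compared with RPL7 and RPL26 in this way. RPS27L minus RPS27 was -2.95 ± 0.270 (SD, n = 4) at 4 h and -2.30 ± 0.159 at 24 h in untreated kidneys, and -3.03 ± 0.156 and -2.10 ± 0.363 in CO kidneys. It was thus higher at 24 h than at 4 h by 0.65 and 0.93, with no overlap in either arm. The two-sided exact permutation test gave p = 0.0286 in each arm, the smallest that 4 against 4 arrays can give. After adjustment over 4 tests it was 0.0572. In naive kidneys RPS27L read 8.86 and 8.60 and RPS27 11.12 and 11.04. The naive arrays were not part of this test, so it does not show a rise above naive. RPL22L1 minus RPL22 was higher at 24 h by 0.42 in untreated (exact permutation p = 0.171) and 0.18 in CO kidneys (exact permutation p = 0.2, both 0.2 after adjustment). RPL22 itself, whose probe set was the brighter of that pair, had means of 11.02 in naive, 10.97 and 10.91 at 4 h and 11.18 and 11.13 at 24 h and did not pass anywhere. RPL26L1 had means of 7.80 in naive, 7.54 and 7.57 at 4 h and 7.88 and 7.87 at 24 h, and RPL36AL of 9.26, 9.35 and 9.36, and 9.63 and 9.44; neither passed in any comparison.

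In all, 18 of 64 members passed in at least 1 of the 9 comparisons and 46 in none, where 32.6% of all probe sets passed in at least 1. Among the 55 with a mean above 9 no difference exceeded 0.62. The mean level was above 10 for 53 members, where the highest value of any probe set was 13.46. Whether differences in RNA are compressed at such levels was not tested. The array held 32 further probe sets for these genes. The 4 with a mean above 9 had the sign of the brightest probe set in 4 of 4 cases in both 24 h against 4 h comparisons, while the 28 dimmer ones had it in 19 (untreated) and 18 (CO). When all probe sets of a gene were averaged, RPL12 and RPL27 passed in no comparison; their other probe sets had means of 3.80 and 3.98 (RPL12) and of 3.51 and 10.4 (RPL27).

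Median differences from naive were larger for genes that help to build ribosomes. Ribosome biogenesis factors, of which 62 of 82 were measured, rose in 29 cases and fell in 1 in untreated kidneys at 24 h against naive, with a median of 0.66, and in 29 and 0 in CO kidneys (0.63). In CO kidneys at 4 h 27 rose and 1 fell (0.62), and in untreated kidneys 4 rose and 0 fell (0.52). Over all probe sets, 6.79% and 5.75% rose at 24 h (untreated and CO) and 6.84% rose in CO kidneys at 4 h. For untreated kidneys at 4 h, 1.5% passed in either direction. GNL3, the nucleolar GTPase nucleostemin, rose by 2.06 ± 0.304 in untreated kidneys at 24 h (adjusted p = 0.000589), FBL, the methyltransferase fibrillarin, by 1.63 ± 0.310 (adjusted p = 0.00281), and NOP56, its partner in the box C/D particle, by 1.63 ± 0.304 in CO kidneys at 4 h (adjusted p = 0.00639). Between 4 h and 24 h, 6 rose and 2 fell in untreated (median 0.15) and 9 rose and 2 fell in CO kidneys (0.02). Of all probe sets 5.15% and 10.2% rose over that time, and of the 1000 brightest others 12.6% and 18.2%. Thus the medians of the biogenesis factors were already high at 4 h, when those of the ribosomal proteins were below 0. Against naive, the rising genes numbered 7 (24 h untreated), 3 (24 h CO), 1 (4 h CO) and 0 (4 h untreated) without naive 1, and 8, 7, 0 and 0 without naive 2. With the batch as a block they numbered 0 at 24 h in both arms, where the medians were 0.71 (untreated) and 0.68 (CO), 1 for untreated at 4 h (0.56) and 25 for CO at 4 h (0.64). In untreated kidneys at 4 h 30 rose without untreated 1, 0 without untreated 2 or 3 and 1 without untreated 4, and 2 to 7 rose without 1 of 4 arrays of the other groups (CO 2, 4 or 7 or untreated 8). In CO kidneys 17 rose at 4 h without CO 1 and 18 at 24 h without CO 7. Over time 0 rose in untreated kidneys without untreated 6, 2 without untreated 7 and 3 without untreated 3 or 5, and 5 rose in CO kidneys without CO 4; with the batch as a block 0 rose in either arm (medians 0.17 and -0.04).

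Mitochondrial ribosomal proteins, 58 of 58 measured, fell in 15 cases and rose in 1 in CO kidneys at 4 h against naive (median -0.43), where 6.72% of all probe sets fell and 6.84% rose. In untreated kidneys 0 passed (-0.33), but without untreated 1, 15 fell and 2 rose. At 24 h, 18 rose in untreated (median 0.38) and 27 in CO kidneys (0.47) against 4 h, and 0 fell. In those comparisons 5.15% and 10.2% of all probe sets rose, and 12.6% and 18.2% of the 1000 brightest others. MRPS12 rose by 1.30 ± 0.208 (adjusted p = 0.000878) and MRPS14 by 1.19 ± 0.169 (adjusted p = 0.000446) in CO kidneys, while MRPS36, now placed in the 2-oxoglutarate dehydrogenase complex, fell by 1.39 ± 0.404 in untreated kidneys at 24 h against naive (adjusted p = 0.0299). With the batch as a block 0 rose over time in either arm, while the medians were 0.48 (untreated) and 0.66 (CO). In untreated kidneys 9, 10 and 11 rose over time without untreated 6, 5 and 3. The falls in CO kidneys at 4 h numbered 0 without either naive array, 2 without CO 1, 5 without CO 3 and 7 with the batch as a block. The 22 of 27 measured other genes whose messages begin with a pyrimidine tract had medians of 0.03 (untreated) and 0.08 (CO) for time. Those of all probe sets were 0.02 and -0.04. Over time 2 and 3 of them rose, where 5.15% and 10.2% of all probe sets did. Against naive their medians were -0.03 and -0.13 at 4 h and 0.07 and 0.04 at 24 h (untreated and CO). The cytosolic ribosomal proteins had -0.07 and -0.14, and 0.15 and 0.09. The pyrimidine tract list still holds FAU, which encodes a small subunit protein, and RACK1, a small subunit constituent. Their symbols fall outside the member rule, so the 2 lists are not a clean contrast. VIM, the filament protein vimentin, rose by 2.06 ± 0.340 in untreated kidneys at 24 h (adjusted p = 0.00119), IPO5, a nuclear import receptor, by 1.51 ± 0.375 in CO kidneys at 4 h (adjusted p = 0.0174), and EIF4B, an initiation factor, fell by 0.77 ± 0.185 in CO kidneys at 24 h (adjusted p = 0.0137), all against naive.

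Of RNA polymerase I and its factors 8 of 16 were measured, and 3 rose in untreated kidneys at 24 h, 1 in CO kidneys at 24 h and 2 in CO kidneys at 4 h against naive, with 0 falling. In these comparisons 6.79%, 5.75% and 6.84% of all probe sets rose, as did 19.9%, 18.1% and 18.3% of the 1000 brightest others. Counts of 8 genes were not tested against these shares. TAF1D rose by 1.12 ± 0.285 (adjusted p = 0.0153) and the subunit POLR1B by 0.97 ± 0.300 (adjusted p = 0.039) in untreated kidneys at 24 h, and POLR1C by 0.85 ± 0.193 in CO kidneys at 4 h (adjusted p = 0.0121). Of the kinases and upstream regulators, 11 of 24 were measured. Against naive, 2 rose and 0 fell in untreated kidneys at 4 h, 3 rose and 2 fell in CO kidneys at 4 h, 2 rose and 2 fell in untreated kidneys at 24 h, and 1 rose and 1 fell in CO kidneys at 24 h. Over time 1 rose and 2 fell in untreated and 1 rose and 3 fell in CO kidneys. The shares of all probe sets in these comparisons are given above, and counts of 11 genes were not tested against them. MYC, a transcription factor that drives ribosome production, rose in all 4 comparisons with the shared naive arrays: by 2.64 (untreated, adjusted p = 0.0284) and 2.95 ± 0.510 (CO, adjusted p = 0.00517) at 4 h, and by 2.63 (adjusted p = 0.00315) and 2.30 (adjusted p = 0.00891) at 24 h. RPS6KA1, a kinase of RPS6, rose by 1.40 ± 0.370 in untreated kidneys at 24 h (adjusted p = 0.0185), and EIF4EBP2, a translational repressor, fell by 1.55 ± 0.223 in untreated kidneys at 24 h (adjusted p = 0.000492).

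**Figure D5:**
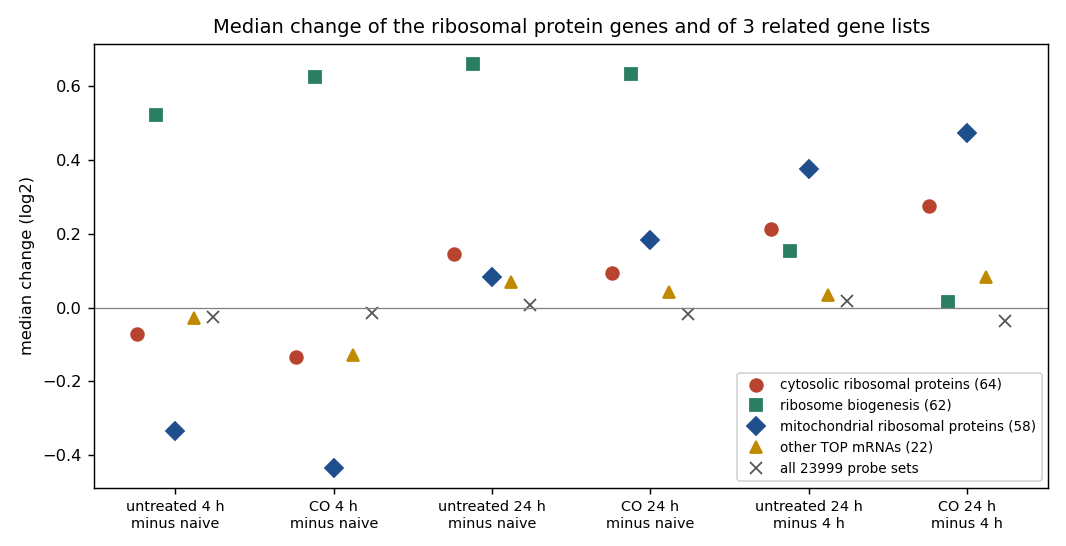
Median log2 difference of the 64 cytosolic ribosomal protein genes, of 62 ribosome biogenesis, 58 mitochondrial ribosomal protein and 22 other pyrimidine tract (TOP) genes, and of all 23999 probe sets, in 6 comparisons (horizontal axis). Biogenesis genes lie between 0.52 and 0.66 in all 4 comparisons with naive, while cytosolic ribosomal proteins range from -0.14 to 0.28 over the 6 comparisons.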

How the data were processed

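The deposited values are log2 summaries per probe set, which the authors made with RMA, per the submitters' processing notes; its version and settings are not given in the sources used here. Without the 124 controls, 23999 of 24123 probe sets were tested, dim ones included. The platform annotation gives 10069 of them 1 symbol, 198 several and 13732 none; the 64 members' gene identifiers all matched RefSeq with unchanged symbols. Groups follow title and source name; on CO arrays the label for treatment says air. File name numbers of the naive arrays recur in the donor 4 arrays, so animals may be shared, which the tests ignore.

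A linear model with 1 mean per group was fitted to all 18 arrays without a block in limma 3.58.1 (lmFit, eBayes; R 4.3.3), and p-values were adjusted over all probe sets. The number of arrays limits the precision. Transplanted replicates are of different donors; for naive kidneys no donor is given. File names give 4 batches: batch 1 (naive 1, donors 1, 3 and 4), batch 2 (naive 2, donor 2, untreated donor 5), batch 4 (CO donor 6) and batch 3 (the rest). Donors pair CO with untreated kidneys: after group means were removed, partner arrays correlated between -0.20 and 0.57, above 0.1 in 6 of 8 donors. Members and lists were chosen with earlier results of these data known. Genes named were, per comparison, up to 6 passing members of largest change in each direction (or, with fewer than 3 passing, the 3 smallest p-values), the 3 brightest and 3 dimmest, 15 measured of 20 fixed genes, and up to 3 passing genes per list. RPL21, RPL24, RPL26L1, RPL34, RPL37 and RPS19BP1 were named outside this rule, after their values were seen. Tests were checked on simulated data. Sequences were not used here.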

Additional observations from a re-analysis of the deposited data

Results flagged for a closer look

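For 30 named members and the median of all 64, each in 4 transplanted groups, 124 groups of 4 arrays were examined for an array far from the other 3 relative to the group's range (Dixon's test at the 95% level), and 9 were found; chance gives about 1 in 20 groups. Arrays of the same donor recur. In untreated kidneys at 4 h, donor 3 was low for RPL22 (10.67, others 11.04 to 11.08), RPLP2 (8.68, others 9.27 to 9.37) and RPS27 (10.73, others 11.14 to 11.17). In CO kidneys at 4 h, donor 2 was high for RPL36AL (9.72, others 9.21 to 9.27) and RPS20 (12.14, others 11.76 to 11.79). At 24 h, the untreated kidney of donor 5 was low for RPL11 (11.35, others 11.65 to 11.66), while the CO kidney of donor 5 was high for RPL5 (11.00, others 10.63 to 10.67) and RPS27L (8.82, others 8.45 to 8.50). The CO kidney of donor 8 was low for RPS28 (10.52, others 10.97 to 11.01).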

How the results depend on the processing

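With 2 naive arrays and 4 in each other group, the counts of members that passed were unstable. Leaving out a naive array leaves 1 in that group, so lower counts of members or list genes can then reflect precision alone. The 243 median differences under alternatives each stayed within the spread between replicates (the mean SD of the array medians) of the main value. That check did not ask for the same direction, and medians as small as -0.02 (CO against untreated at 24 h) could reverse or vanish within it. Counts moved by more than 1.5 times as follows. Array weights gave 4 in untreated kidneys at 4 h against naive, 16 in untreated kidneys at 24 h against naive, 11 in CO kidneys at 4 h against naive, 18 for time in untreated and 30 for time in CO kidneys. Higher counts with weights were not confined to the members. In untreated kidneys at 4 h, 33 biogenesis genes then rose (4 without weights) and 26 mitochondrial ribosomal protein genes fell (0 without weights). Shares of all probe sets in the alternative settings are not given here. The batch read from the array file names as a block gave 0 for both 24 h comparisons with naive and both time comparisons, and 1 for CO at 4 h. In the comparisons that use 24 h arrays, the block rests on 1 linking array, untreated 5, so those counts of 0 say little about the members. Fitting only the groups compared gave 1 for CO at 4 h, 4 for CO at 24 h against naive, 1 for time in untreated and 9 for time in CO kidneys. A filter at a mean log2 value above 4 gave 1 for CO at 4 h, where RPL30 left the test. Averaging all probe sets of a gene gave 5 for CO at 24 h against naive, and RPS28 turned from -0.62 to 0.002 (adjusted p = 0.992); its other 2 probe sets were 0.45 and 0.18 above naive. For time in untreated kidneys, centring on the 1000 brightest other probe sets gave 12 and a second quantile normalisation 9. Without 1 array at a time, the counts ranged from 0 to 3 for untreated at 4 h, 1 to 9 for untreated at 24 h, 0 to 3 for CO at 4 h and 1 to 8 for CO at 24 h, all against naive, from 1 to 8 and 6 to 26 for time in untreated and CO kidneys, and 0 to 0 for CO against untreated at each time and for the interaction. With the donor number as a replicate block, the counts were 0, 9, 2 and 8 against naive (untreated 4 h, untreated 24 h, CO 4 h, CO 24 h), 5 and 15 for time and 0 for each comparison of CO with untreated, so that pairing moved no count by over 1.5 times. Of 1046 values of named genes under alternatives, 894 kept direction and side of the threshold, 144 fell below it, 7 rose past it and 1 reversed; apart from the values given here and above, the cause was not tested. Signals near background limit RPL26, RPL30 and RPS15A.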
